A study of Mus musculus with 8 samples.

Results

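Glutamate uptake and the glutamate-glutamine cycle were followed in the mouse brain through 9 genes, taken from the table by their gene symbols. They are 4 plasma membrane glutamate transporters (Slc1a1, Slc1a2, Slc1a3 and Slc1a6), glutamine synthetase (Glul), 3 glutamine transporters (Slc38a1, Slc38a2 and Slc38a3) and glutamate dehydrogenase (Glud1). All 9 were found among the 24343 genes of the deposited table, as 15 of its 34535 transcripts. Each of the 9 passed the minimum mean level of 1 FPKM, as 13001 genes of the table did. FPKM counts sequenced fragments relative to transcript length and to library size, so that levels can be compared between genes of different length.

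The data are bulk RNA-seq of the whole brain of 3 C57BL/6NCrl mice, an inbred laboratory strain, each 56 to 62 days old. There was 1 condition, with no treatment or genetic change named in the labels, and 3 libraries came from mouse 1, 3 from mouse 2 and 2 from mouse 3. The meaning of these library numbers is not given in the sources used here, so that a difference between mice and a difference between the preparations of their libraries cannot be told apart. Libraries of a mouse are not separate animals, each SD is taken over the 3 mouse means, and p-values describe these 3 mice only.

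Glutamate is the main excitatory transmitter of the brain, and it is cleared from the space around synapses by sodium-coupled transporters that sit mostly on astrocytes. Astrocytes turn the captured glutamate into glutamine with glutamine synthetase, release it, and neurons take it up and convert it back into glutamate. Part of the glutamate is instead oxidised in mitochondria, where glutamate dehydrogenase feeds it into the citric acid cycle.

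The 9 genes spanned a wide range of levels. Glul was the highest with 611 ± 169 FPKM (SD, n = 3 mice), followed by Slc1a2 with 263 ± 52.5 FPKM, Slc1a3 with 182 ± 40.9 FPKM and Glud1 with 98.8 ± 27.2 FPKM. These 4 genes act largely in astrocytes, and they ranked 47, 182, 274 and 574 among the 13001 genes by mean level. The other 5 genes lay lower and closer together. Slc38a1 had 32.3 ± 3.41 FPKM, Slc38a3 27.7 ± 2.27 FPKM, Slc38a2 26.9 ± 3.47 FPKM, Slc1a1 25.3 ± 4.34 FPKM and Slc1a6 10.4 ± 0.752 FPKM. All 9 were above the median of the tested genes, 8.81 FPKM.

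Neighbours in this order were compared library by library. Each of the steps from Glul to Slc1a2, from Slc1a2 to Slc1a3, from Slc1a3 to Glud1 and from Glud1 to Slc38a1 had the same direction in 8 of 8 libraries, as did the last step, from Slc1a1 to Slc1a6. Slc38a1 was above Slc38a3 in 7 of 8 libraries and in 2 of 3 mouse means, Slc38a3 was above Slc38a2 in 4 of 8 libraries, and Slc38a2 was above Slc1a1 in 6 of 8. The 3 glutamine transporters and Slc1a1 were therefore not all in a fixed order, although Slc38a1 was above Slc38a2 and Slc1a1 in every library. Of the 36 pairs of the 9 genes, 32 were in the same order in all 8 libraries. When the highest transcript of each gene was taken in place of the sum, 29 were. Slc38a1 then had a mean of 17.0 FPKM, below those of Slc38a2 and Slc1a1, and Slc1a2 and Slc1a3 both had 182 FPKM.

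**Figure D1:**
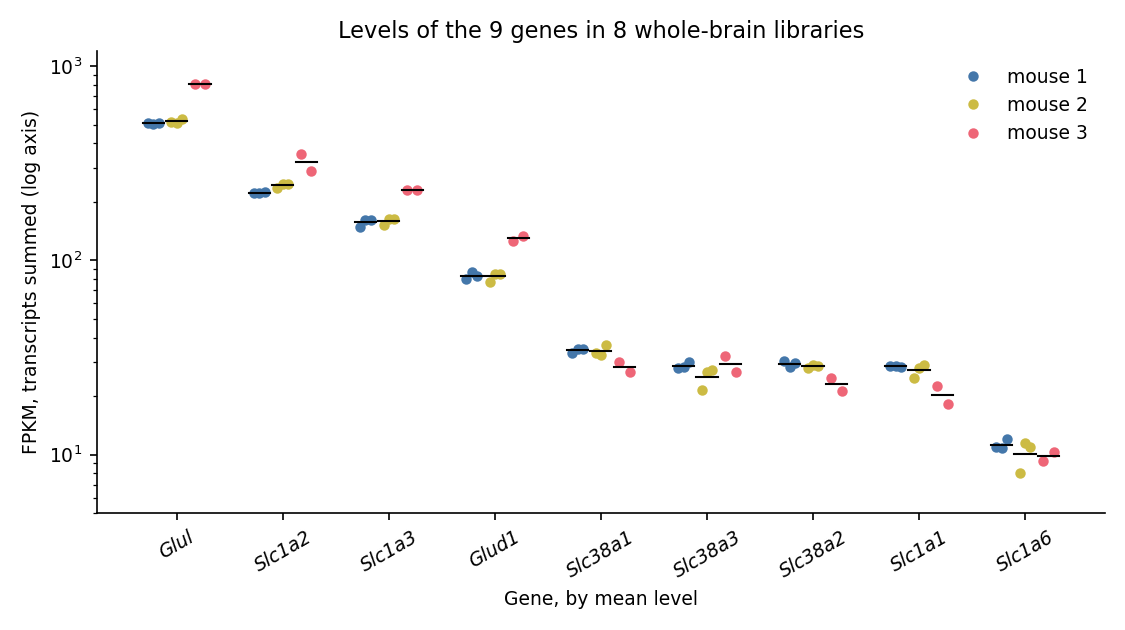
Level of each of the 9 genes in each of the 8 libraries, in FPKM with transcripts summed, on a log axis; points are libraries coloured by mouse and bars are the means of a mouse. Glul, Slc1a2, Slc1a3 and Glud1 lie highest, and for these 4 both libraries of mouse 3 lie above the 6 libraries of mice 1 and 2.

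The libraries differed in ways that bear on every comparison of the mice. Each library held 1.31 to 2.02 gigabases on transcripts, with a median of 1.76. The FPKM values added up to 384885 to 409889 in the libraries of mouse 3 and to 295541 to 345572 in the others, so that a gene with an equal FPKM in all libraries held a smaller share of the total in mouse 3. The deviation of a gene from its mean over the libraries followed transcript length in opposite directions, with a Spearman's rho from 0.182 to 0.502 across genes in the libraries of mice 1 and 2, and of -0.363 and -0.574 in those of mouse 3. Scaling each library to the same total (TPM) shifted the median difference of all genes from -0.01 to -0.28 for mouse 3 against mouse 1 and from 0.04 to -0.23 against mouse 2, on the log2 scale. The differences between the mice were therefore also computed in TPM and with the length trend removed, and for the 9 genes they are given below where a call or a direction changed.

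Mouse 3 stood apart from the other mice in most of the 9 genes. Of the 9, 6 differed between the mice in the moderated F-test of limma, run on log2(FPKM + 1) and adjusted by Benjamini-Hochberg over all 13001 genes, with a threshold of 0.05. Of all genes tested, 25.5% did. Between mouse 3 and mouse 1, 4 of the 9 genes were higher, against 14.7% of all genes, and 2 were lower, against 15% of all genes. Between mouse 3 and mouse 2 the counts were again 4 and 2, against 19% and 13.1% of all genes. These comparisons share the libraries of mouse 3. Between mouse 2 and mouse 1 the same limma test called 0 of the 9 genes in either direction, against 0.00769% of all genes higher and 0% lower, and 0 of the 9 had an unadjusted p under 0.05. In bulk tissue, fewer cells of a type and less RNA per cell cannot be told apart.

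Glul encodes glutamine synthetase, the astrocyte enzyme that joins ammonia to glutamate. The gene lies on the plus strand of chromosome 1 from 153899929 to 153909723 (mm10), and the table gives a single transcript of 2807 nucleotides for it. The libraries of mouse 1 had 508, 505 and 508 FPKM, those of mouse 2 had 516, 512 and 531 FPKM, and those of mouse 3 had 805 and 806 FPKM. The libraries of a mouse lay close together, and both of mouse 3 lay far above the others with no overlap. On the log2(FPKM + 1) scale, Glul was higher in mouse 3 by 0.67 ± 0.0723 (SE) than in mouse 1 and by 0.63 ± 0.0723 than in mouse 2, which is 1.59-fold and 1.55-fold (limma, adjusted p = 0.00286 and 0.00405). The call held with each library left out in turn. In TPM the differences fell to 0.37 and 0.33 and were called (limma F-test, adjusted p = 0.0323). The bases read on this transcript came to 2.45 to 4.80 megabases a library.

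Slc1a2 encodes GLT-1 (EAAT2), the transporter that carries most of the glutamate uptake of the forebrain. It spans chromosome 2 from 102658683 to 102790784 on the plus strand. The sum of its 3 transcripts was 222, 221 and 224 FPKM in mouse 1, 235, 247 and 248 FPKM in mouse 2, and 354 and 289.9 FPKM in mouse 3. Both libraries of mouse 3 were above all others, but they also lay farther from each other than the libraries of mouse 1 or mouse 2 did. Slc1a2 was higher in mouse 3 by 0.52 ± 0.0975 than in mouse 1 and by 0.40 ± 0.0975 than in mouse 2 on the log2 scale (limma, adjusted p = 0.00831 and 0.0185). In TPM these differences were 0.23 and 0.09 and were not called (adjusted p of the F-test 0.285). Less the medians of all genes in TPM, -0.28 and -0.23, they were 0.51 and 0.32. With the length trend removed they were 0.81 and 0.71. Without library 1 of mouse 3 they were 0.38 and 0.25 and were still called (limma, adjusted p = 0.0118 and 0.0413).

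The reads of Slc1a2 were divided by the authors' estimation among 3 transcripts, whose shares are therefore estimates. The RefSeq transcript NM_001077515, of 10998 nucleotides, held 69.7 ± 1.45% of the FPKM of the gene (SD, n = 3 mice), NM_001077514, of 11571 nucleotides, held 29.0 ± 1.27%, and the short NM_011393, of 2127 nucleotides, held 1.24 ± 0.174%. NM_001077514 starts 47755 bases upstream of the other 2, at a start site of its own. Its share was 28.4%, 26.8% and 27.9% in mouse 1, 28.8%, 28.1% and 30.6% in mouse 2, and 34.3% and 26.3% in mouse 3. The libraries of mouse 3 thus held both the highest and the lowest share of all, and the mice overlapped. In FPKM, NM_001077514 had 121 and 76.1 in these libraries, against 59.4 to 75.9 in the other 6, and the transcript NM_001077515 had 228 and 209.7, against 157 to 174. By this estimate, NM_001077514 held most of the difference between the 2 libraries of mouse 3 in the sum of the gene. The trend with transcript length fitted for Slc1a2 was -0.056 in library 1 and -0.394 in library 2 of mouse 3, on the log2 scale. Its part in this difference was not tested.

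Slc1a3 encodes GLAST (EAAT1), the transporter of radial glia, Bergmann glia of the cerebellum and other astrocytes. The gene lies on the minus strand of chromosome 15 from 8634124 to 8710807, with 1 transcript of 4206 nucleotides in the table. It had 149, 162 and 161 FPKM in mouse 1, 152, 164 and 163 FPKM in mouse 2, and 229.7 and 229 FPKM in mouse 3. The libraries of mice 1 and 2 overlapped and those of mouse 3 lay apart. The difference was 0.54 ± 0.0816 from mouse 1 and 0.52 ± 0.0816 from mouse 2 on the log2 scale (limma, adjusted p = 0.00508 and 0.00575). In TPM it was 0.25 and 0.22 and was not called (F-test, adjusted p = 0.108). Less the medians of all genes in TPM, -0.28 and -0.23, it was 0.53 and 0.45. Without the second library of mouse 3 the differences were 0.55 and 0.52, and the limma F-test missed the threshold.

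Slc1a1 encodes EAAC1 (EAAT3), a transporter found mainly on the cell bodies and dendrites of neurons. It lies on the plus strand of chromosome 19 from 28835166 to 28913960, with 1 transcript of 3708 nucleotides. It had 28.5, 28.7 and 28.2 FPKM in mouse 1, 24.7, 28.0 and 28.9 FPKM in mouse 2, and 22.6 and 18.1 FPKM in mouse 3. Slc1a1 thus went the other way from the glial transporters, with both libraries of mouse 3 below all others. The log2 difference was -0.47 ± 0.111 from mouse 1 and -0.40 ± 0.111 from mouse 2 (limma, adjusted p = 0.0173 and 0.0261). The limma F-test, with an adjusted p of 0.0324 over all libraries, passed in 3 of 8 fits that each left out 1 library. Its adjusted p was 0.0706, 0.0753 and 0.0735 without libraries 1, 2 and 3 of mouse 1, 0.0593 without library 2 of mouse 2, and 0.211 without library 2 of mouse 3, where the differences were -0.32 and -0.25. In TPM the differences were -0.77 and -0.72. With the highest transcript of each gene in place of the sum, which alters the other genes but not Slc1a1, the adjusted p of the limma F-test was 0.0509. Of the annotated exon bases of Slc1a1, 31.9% overlap those of 4430402I18Rik on the other strand, which itself had 1.30 FPKM. Whether reads were assigned by strand is not given in the sources used here, so that reads from both genes cannot be told apart in the overlap.

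Slc1a6 encodes EAAT4, the transporter of cerebellar Purkinje cells, and lies on the plus strand of chromosome 10 from 78780496 to 78814825, with 1 transcript of 2089 nucleotides. It had 10.9, 10.8 and 12.0 FPKM in mouse 1, 7.99, 11.5 and 10.9 FPKM in mouse 2, and 9.29 and 10.3 FPKM in mouse 3. The mice overlapped, and no difference passed the test (limma F-test, adjusted p = 0.509). Its difference of -0.18 ± 0.142 from mouse 1 was -0.47 in TPM, where the gene was called (F-test, adjusted p = 0.0289), and its difference of -0.03 ± 0.142 from mouse 2 changed sign in some settings. This is the gene with the thinnest data of the 9, with 0.0283 to 0.0622 megabases read on its transcript in a library. Among the 6 Purkinje cell markers, which include Pcp2 and Calb1, the limma F-test called 0, against 25.5% of all genes, and 2 had an unadjusted p under 0.05. In TPM it called 1, Calb1, and with the length trend removed 2, Itpr1 and Rgs8, beside 5493 and 2635 of all 13001 genes.

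**Figure D2:**
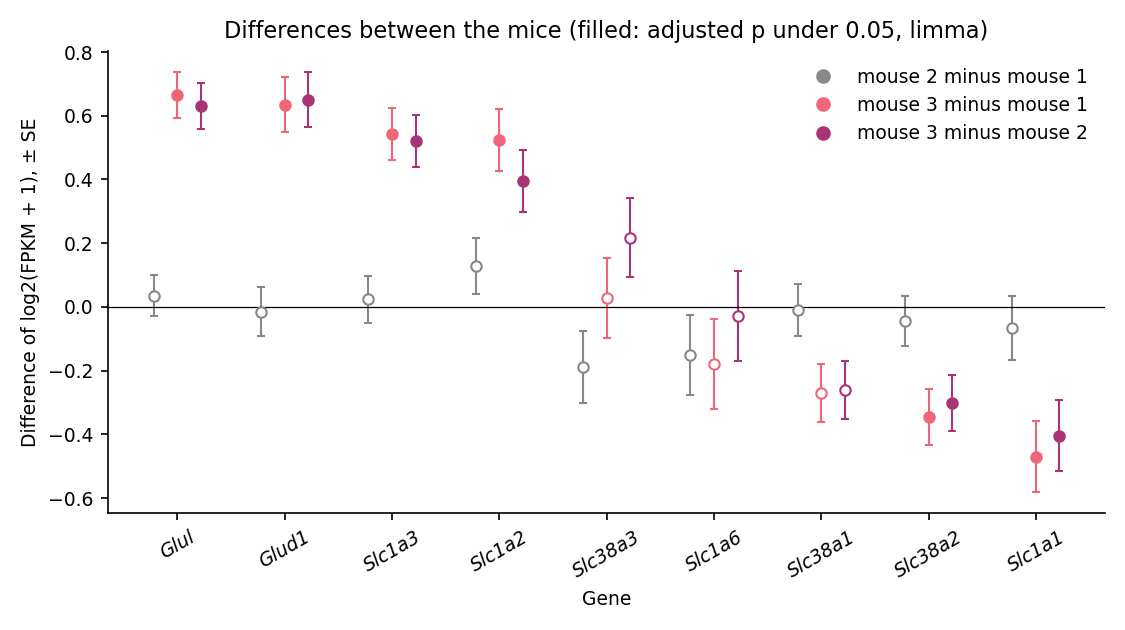
Difference of log2(FPKM + 1) between each pair of mice for the 9 genes, with error bars of ± 1 SE from the limma fit; filled points have an adjusted p under 0.05. Glul, Glud1, Slc1a3 and Slc1a2 lie above 0 by 0.40 to 0.67 for mouse 3 against both other mice, Slc38a2 and Slc1a1 lie below 0, and no grey point, for mouse 2 against mouse 1, is filled.

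As a share of the FPKM of the glutamate transporters (Slc1a1, Slc1a2, Slc1a3, Slc1a6 and the retinal Slc1a7), the glial pair Slc1a2 and Slc1a3 made up 92.3 ± 2.24% (SD, n = 3 mice). Slc1a2 alone held 54.5 ± 1.27%, Slc1a3 37.8 ± 1.66%, Slc1a1 5.48 ± 1.75% and Slc1a6 2.22 ± 0.494%. Slc1a7 held 0.00407%, and was listed at 0 in 4 of 8 libraries. The glial share was 90.4 to 90.7% in mouse 1, 91.2 to 92.2% in mouse 2, and 94.8% in both libraries of mouse 3, with no overlap between any of the mice. These shares are the same in TPM and were not computed with the length trend removed.

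A ratio of genes within a library does not change when the library is scaled. Slc1a2 exceeded Slc1a3 by 1.42-fold in mouse 1, by 1.52-fold in mouse 2 and by 1.40-fold in mouse 3, which did not differ between the mice beyond the spread of the libraries (exact permutation test over 280 groupings, one-sided, p = 0.382, also 0.382 after adjustment over 4 ratios). The ratio of the neuronal Slc1a1 to Slc1a2 was 0.128, 0.130 and 0.126 in mouse 1, 0.105, 0.114 and 0.116 in mouse 2, and 0.0639 and 0.0625 in mouse 3. The 3 mice did not overlap, and the means of 0.128, 0.111 and 0.0632 spanned 1.02 on the log2 scale (exact permutation p = 0.00357, the smallest that 280 groupings allow, adjusted p = 0.0143). Expressed against Slc1a2, the neuronal transporter was thus lowest in mouse 3. With the length trend removed, the range for Slc1a1 to Slc1a2 was 1.22 with the same p, and the Slc1a2 to Slc1a3 ratio became highest in mouse 3, with an adjusted p of 0.0190 in the exact permutation test. Without library 1 of mouse 3 this ratio spanned 0.27 (exact permutation, adjusted p = 0.0286), and without library 2 of mouse 3 the adjusted p of Slc1a1 to Slc1a2 was 0.0571 with an almost equal range of 1.00. Its unadjusted p was then 0.0143, the smallest that the remaining 70 groupings allow, as it was without library 1 of mouse 3, where the adjusted p was 0.0286.

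**Figure D3:**
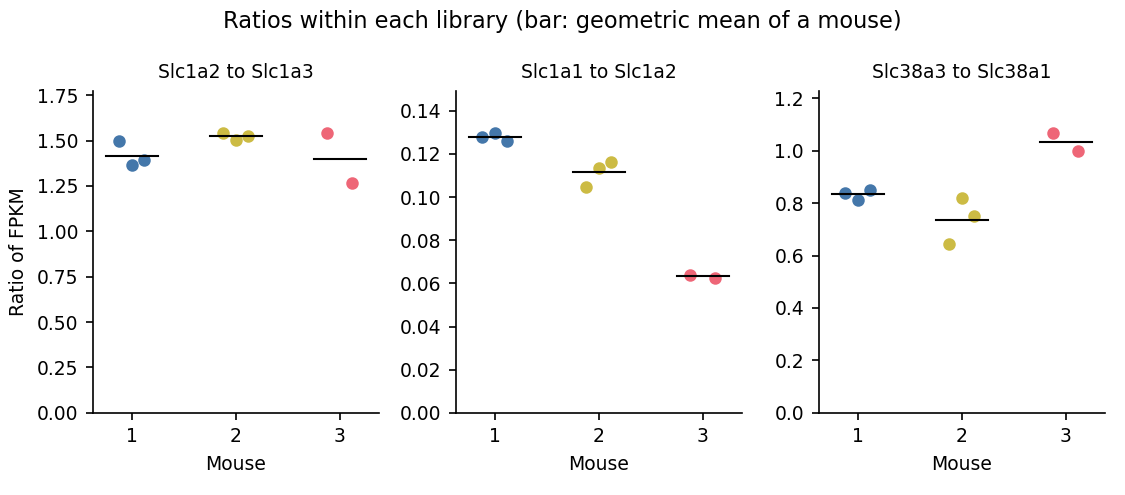
Ratios of FPKM of 3 pairs of genes in each library, by mouse, on axes that start at 0; points are libraries and bars are geometric means. The ratio of Slc1a1 to Slc1a2 falls to 0.0639 and 0.0625 in the libraries of mouse 3, apart from the other mice, whereas the ratio of Slc1a2 to Slc1a3 overlaps between the mice.

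Of the 3 glutamine transporters of the SLC38 family, Slc38a2 was lower in mouse 3 in FPKM, and the differences of Slc38a1 and Slc38a3 did not pass the test. Slc38a3 encodes SNAT3, a transporter of astrocytes through which glutamine leaves the cell. It lies on the minus strand of chromosome 9 from 107651155 to 107668968 and had 27.9, 28.2 and 29.9 FPKM in mouse 1, 21.5, 26.5 and 27.4 FPKM in mouse 2, and 32.2 and 26.6 FPKM in mouse 3. The mice overlapped. Its log2 differences of 0.03 ± 0.125 and 0.22 ± 0.125 for mouse 3 against mice 1 and 2 did not pass (limma F-test, adjusted p = 0.306), and the first became -0.26 in TPM. Of its FPKM, NM_001199217 held 94.3 ± 1.62% and NM_023805 held 5.66 ± 1.62%, and the third transcript held close to none.

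Slc38a1 (SNAT1) and Slc38a2 (SNAT2) carry glutamine into neurons and other cells and are neighbours on the minus strand of chromosome 15, from 96571418 to 96642913 and from 96687392 to 96699698. Slc38a1 had 33.2, 34.8 and 35.2 FPKM in mouse 1, 33.5, 32.4 and 36.5 FPKM in mouse 2, and 30.1 and 26.6 FPKM in mouse 3. Slc38a2 had 30.4, 28.2 and 29.5 FPKM in mouse 1, 27.9, 29.0 and 28.6 FPKM in mouse 2, and 24.6 and 21.3 FPKM in mouse 3. For both genes the 2 libraries of mouse 3 were the lowest of the 8. The differences of Slc38a2, of -0.34 ± 0.0879 and -0.30 ± 0.0879, passed the test (limma, adjusted p = 0.0218 and 0.0318), and those of Slc38a1, of -0.27 ± 0.0916 and -0.26 ± 0.0916, did not (limma, adjusted p = 0.0542 and 0.0589). Whether the 2 genes differ from each other in this was not tested. The call of Slc38a2 in the limma F-test (adjusted p = 0.0410) was lost with the length trend removed (0.118), with a pseudocount of 0.1 (0.0518), with the highest transcript of each gene (0.0622) and in 6 of 8 fits that left out a library. In those 6 the limma adjusted p was 0.0898, 0.0754 and 0.0967 without libraries 1, 2 and 3 of mouse 1, 0.0745 and 0.0674 without libraries 2 and 3 of mouse 2, and 0.216 without library 2 of mouse 3. In TPM the differences of Slc38a2 were -0.64 and -0.61, beside medians of -0.28 and -0.23 over all genes. Less these medians they were -0.36 and -0.38, and those of Glul were 0.65 and 0.56. Slc38a1, with an adjusted p of 0.0911 in the limma F-test, was called in TPM (0.0109) with differences of -0.57 for both, and with the length trend removed its differences were -0.05 and -0.04.

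The transcripts of Slc38a1 start at different sites and held more even shares than those of the other genes. NM_001166456 held 52.9 ± 3.09% of the FPKM of the gene, NM_001166458 held 37.0 ± 3.41% and NM_134086 held 10.02 ± 0.339%. NM_134086 ranged from 6.40% to 13.1% between libraries and over that range in mouse 2 alone, so that its small SD between mice does not reflect the spread of the libraries.

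**Figure D4:**
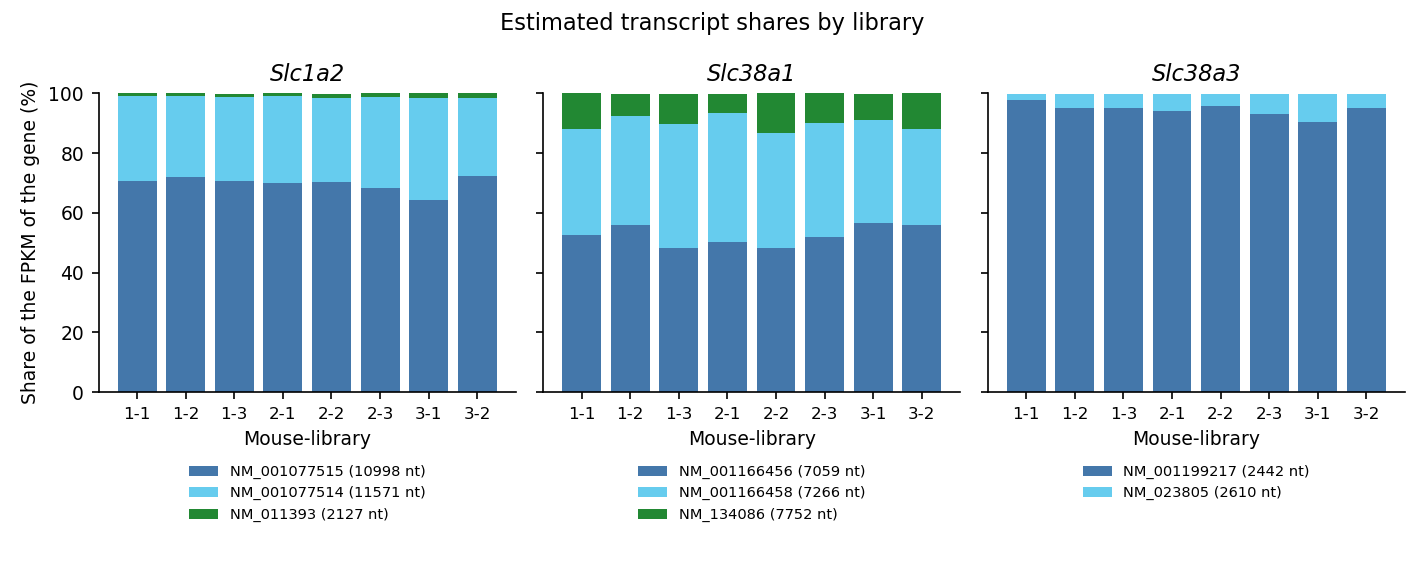
Share of each RefSeq transcript in the FPKM of Slc1a2, Slc38a1 and Slc38a3, in percent, for each library (mouse and library number on the x axis). In Slc1a2 the share of NM_001077514 is highest in library 1 of mouse 3 (34.3%) and lowest in library 2 of mouse 3 (26.3%).

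The ratio of the astrocyte transporter Slc38a3 to the neuronal transporter Slc38a1 had geometric means of 0.834, 0.734 and 1.03 in mice 1, 2 and 3. All libraries of mouse 3 (1.07 and 1.00) lay above those of mouse 1 (0.813 to 0.850) and mouse 2 (0.643 to 0.819), and the exact permutation test gave p = 0.00714 (adjusted p = 0.0143). The transcripts of Slc38a1 are longer than those of Slc38a3, and with the length trend removed the range of the ratio fell from 0.49 to 0.20 on the log2 scale and was not called (exact permutation, adjusted p = 0.368). With 1 library left out, the range was 0.40 to 0.57, and the exact permutation test gave an adjusted p of 0.0571 without library 3 of mouse 1, library 1 of mouse 2 or library 2 of mouse 3, and of 0.0714 without library 1 of mouse 3.

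Glud1 encodes the mitochondrial enzyme that converts glutamate into alpha-ketoglutarate and back. It lies on the plus strand of chromosome 14 from 34310727 to 34345033, with 1 transcript of 3158 nucleotides. It had 79.7, 87.3 and 83.4 FPKM in mouse 1, 77.7, 85.3 and 84.8 FPKM in mouse 2, and 126 and 134 FPKM in mouse 3. The libraries of mice 1 and 2 overlapped for Glud1. Those of mouse 3 lay above all others, as they did for Glul. The difference was 0.64 ± 0.0856 from mouse 1 and 0.65 ± 0.0856 from mouse 2 on the log2 scale, or 1.55-fold and 1.57-fold (limma, adjusted p = 0.00414 and 0.00445). In TPM the difference was 0.35 for both and was called (limma F-test, adjusted p = 0.0220). Without the second library of mouse 3 the F-test missed the threshold (limma, adjusted p = 0.0591), while the differences were 0.59 and 0.61 and both pairwise contrasts passed (limma, adjusted p = 0.0278 and 0.0311).

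For each transcript the table also gives a lower and an upper confidence bound of the FPKM in each library. Of the 6 genes with a single transcript, 4 had bounds in both libraries of mouse 3 that lay apart from those of the 6 other libraries, namely Glul, Slc1a3 and Glud1 above and Slc38a2 below. Bounds were not compared over all transcripts, so that this count has no share to stand beside. By FPKM alone, both libraries of mouse 3 lay above the 6 others for 26.5% of all genes and below for 21.7%. For Slc1a1 the upper bound in mouse 3 reached 24.0 FPKM, above the lowest lower bound of the others, 23.1 FPKM. The bounds cover the estimation within a library and not the spread between libraries.

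Of the 9 genes, Glul and Glud1 were the most alike in their pattern over the 8 libraries. The measure was the root mean square of the difference of their log2 values after each gene was centred on its own mean, which was 0.0582. By this distance Glud1 ranked 13 of 13000 genes from Glul, and Glul ranked 21 from Glud1, while the median distance from Glul over all genes was 0.308. Glud1 was the member nearest to Slc1a3, at rank 28, also at 0.0583. The single nearest genes of the whole table were Trak2 for Glul (0.0375), Myo6 for Slc1a2 (0.0310), Plce1 for Slc1a3 (0.0293) and Zfp365 for Glud1 (0.0398). For the others they were Clstn1 for Slc1a1 (0.0232), Mapt for Slc38a2 (0.0197) and Ralgps1 for Slc38a1 (0.0240), with Minpp1 for Slc1a6 (0.0341) and Gpsm1 for Slc38a3 (0.0316). The 8 libraries of 3 mice carry few independent points, so these distances are descriptions.

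The 250 bases upstream of the RefSeq start site are printed for the 4 genes that were higher in mouse 3, since they moved together, from the RefSeq promoters of GRCm38 (the build mm10), in which 7 of the 9 genes have an entry. Each is written 5′ to 3′ on the strand of its gene and ends at the base before the start site. Capitals mark 3 core promoter motifs found on either strand, the letters TATAAA of a classical core element, the box that reads CCAAT and the GC box with the letters GGGCGG, or their reverse complements, and no 2 of the marked motifs overlap. The windows are chr1:153899679-153899928 on the plus strand for Glul, chr2:102706188-102706437 on the plus strand for Slc1a2, chr15:8710808-8711057 on the minus strand for Slc1a3 and chr14:34310477-34310726 on the plus strand for Glud1.
Glul: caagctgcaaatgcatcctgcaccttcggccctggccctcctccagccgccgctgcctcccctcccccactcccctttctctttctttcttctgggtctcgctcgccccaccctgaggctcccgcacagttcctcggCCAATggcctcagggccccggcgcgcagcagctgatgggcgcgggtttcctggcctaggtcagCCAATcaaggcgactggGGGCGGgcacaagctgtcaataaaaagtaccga
Slc1a2: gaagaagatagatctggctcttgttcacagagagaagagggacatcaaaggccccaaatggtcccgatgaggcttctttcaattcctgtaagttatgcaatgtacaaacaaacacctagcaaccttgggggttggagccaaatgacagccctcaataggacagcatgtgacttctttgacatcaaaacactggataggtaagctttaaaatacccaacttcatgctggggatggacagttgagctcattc
Slc1a3: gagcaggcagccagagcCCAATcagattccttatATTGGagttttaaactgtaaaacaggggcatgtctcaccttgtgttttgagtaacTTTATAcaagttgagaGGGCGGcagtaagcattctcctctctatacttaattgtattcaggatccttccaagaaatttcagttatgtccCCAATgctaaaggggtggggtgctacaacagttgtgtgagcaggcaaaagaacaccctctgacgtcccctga
Glud1: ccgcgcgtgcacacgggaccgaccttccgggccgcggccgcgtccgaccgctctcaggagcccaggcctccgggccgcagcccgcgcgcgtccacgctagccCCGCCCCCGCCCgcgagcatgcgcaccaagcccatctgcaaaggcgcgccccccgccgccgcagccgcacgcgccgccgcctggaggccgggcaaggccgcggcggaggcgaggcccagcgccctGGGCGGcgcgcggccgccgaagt

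These 4 windows had little in common. The window of Glud1 had a GC content of 82% with 3 GC boxes, that of Glul 64.8% with 2 CCAAT boxes and 1 GC box, and those of Slc1a2 and Slc1a3 44.8% each, against a median of 52.4% over the 32851 promoters of the table. Slc1a3 held 3 CCAAT boxes, 1 GC box and 1 TATAAA on the opposite strand, and Slc1a2 held none of the 3 motifs in this window, which belongs to the downstream start site of NM_001077515. Of all promoters, 12.4% held TATAAA, 33.8% held CCAAT and 32.7% held GGGCGG in windows of the same length on either strand. None of the 3 motifs was present in all 4 windows.

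Around the 9 genes, 33 further genes of glutamate and glutamine handling were read, of which 29 had a mean of at least 1 FPKM. The limma F-test called 9 of the 29, beside 25.5% of all genes. Against mouse 1, 6 were higher and 7 lower in mouse 3, beside 14.7% and 15% of all genes. Against mouse 2, 7 were higher and 3 lower, beside 19% and 13.1% of all genes. The median difference of the 29 was -0.06 and 0.06 on the log2 scale, beside -0.01 and 0.04 over all 13001 genes. In TPM the median against mouse 1 was below 0 in each of the 7 lists that these genes form, from -0.07 to -0.88, beside -0.28 over all genes.

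Gad1 and Gad2, the decarboxylases that make the inhibitory transmitter GABA from glutamate, were lower in mouse 3 in FPKM, in TPM and with the length trend removed. Gad1 had 125, 141 and 136 FPKM in mouse 1, 110.3, 129 and 134 FPKM in mouse 2, and 92.2 and 76.5 FPKM in mouse 3. Gad2 had 38.2, 42.0 and 42.2 FPKM in mouse 1, 42.3, 39.4 and 41.3 FPKM in mouse 2, and 30.0 and 24.0 FPKM in mouse 3. For both genes the libraries of mouse 3 were the lowest of the 8. The differences were -0.67 and -0.58 from mouse 1 and -0.56 and -0.59 from mouse 2 (limma F-test, adjusted p = 0.0144 and 0.0124). Without library 2 of mouse 3 neither was called (limma, adjusted p = 0.124 for Gad1 and 0.0890 for Gad2). Gls2, a glutamine-degrading enzyme at 6.53 ± 1.01 FPKM, was not called, with differences of 0.33 and 0.34 (limma F-test, adjusted p = 0.187).

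Among the 29 genes, Slc25a18 and Kcnj10 had the largest differences above 0 in FPKM. Slc25a18, which carries glutamate into the mitochondria of astrocytes, had 21.9, 22.7 and 23.6 FPKM in mouse 1, 20.0, 22.8 and 22.8 FPKM in mouse 2, and 38.7 and 39.6 FPKM in mouse 3, differences of 0.76 and 0.82 (limma F-test, adjusted p = 0.00510). They were 0.48 and 0.53 in TPM and 0.52 and 0.49 with the length trend removed, and Slc25a18 was called in both (limma F-test, adjusted p = 0.00553 and 0.00541). Its neuronal counterpart Slc25a22 was at 44.1 ± 7.13 FPKM with differences of -0.46 and -0.32, and the F-test did not call it (limma, adjusted p = 0.0732), but did in TPM (0.00702) and with the length trend removed (0.0384). Of the 4 mitochondrial carriers, Slc25a18 was the one called in FPKM, where 25.5% of all genes were. In TPM 3 of them were called, beside 5493 of all 13001 genes. Without library 2 of mouse 3 the differences of Slc25a18 were 0.74 and 0.80.

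Of the 5 membrane partners, 2 were called in the F-test, beside 25.5% of all genes, and both were higher in mouse 3. Kcnj10, the inwardly rectifying potassium channel Kir4.1 that holds the astrocyte membrane potential, had 67.9 ± 22.5 FPKM with differences of 0.79 and 0.73, and Arl6ip5 (GTRAP3-18), which binds the transporter encoded by Slc1a1, had 96.1 ± 18.3 FPKM with differences of 0.41 and 0.48 (limma F-test, adjusted p = 0.00510 and 0.0289). In TPM the differences of Kcnj10 were 0.51 and 0.44 and it was called (limma F-test, adjusted p = 0.00673), whereas those of Arl6ip5 were 0.12 and 0.18 and were not (0.314). With the length trend removed the differences of Arl6ip5 were 0.16 and 0.14 and the call was lost (limma F-test, adjusted p = 0.255). Without library 2 of mouse 3 the limma F-test called Kcnj10 (0.0419) and not Arl6ip5 (0.203). The cystine-glutamate exchanger Slc7a11, its partner Slc3a2 and Slc7a5 were not called in the F-test, and with the length trend removed Slc7a11 was, with differences of 0.45 and 0.48 in place of 0.19 and 0.20 (limma, adjusted p = 0.0166).

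Among the 8 transaminases and enzymes of the proline route, 2 were called, Gpt2 with differences of 0.55 and 0.55 and Aldh4a1 with 0.41 and 0.41 (limma F-test, adjusted p = 0.0163 and 0.0301). Neither was called in TPM (limma, 0.102 and 0.425) or without library 2 of mouse 3 (0.143 and 0.116). The abundant aspartate transaminases Got1 and Got2, at 124 ± 9.24 and 89.8 ± 11.7 FPKM, were not called in the F-test. With the length trend removed, Got2 (0.0422) and the alanine transaminase Gpt (0.0488) were called as well (limma F-test, adjusted p). The vesicular transporters, which fill synaptic vesicles with glutamate, gave 0 of 2 tested (Slc17a7 at 244 ± 24.7 FPKM and Slc17a6 at 22.0 ± 1.22 FPKM), with Slc17a8 below the minimum level, and neither had an unadjusted p under 0.05 in the limma F-test. In TPM both were called, as were 4 of the 8 transaminases and enzymes of the proline route. The further SLC1 genes gave 0 of 1 tested, Slc1a4 at 11.6 ± 0.328 FPKM. Of the 6 further SLC38 genes tested, 2 were called, Slc38a6 and Slc38a9, both at under 3 FPKM and with differences of -0.44 and -0.36 from mouse 1. Without library 2 of mouse 3 neither was called (limma, adjusted p = 0.180 and 0.199), and Slc38a9 was not with the length trend removed (0.409). In TPM Slc38a7 was called as well (limma, adjusted p = 0.00739). The counts in FPKM stand beside 25.5% of all genes called in the F-test. Of all 13001 genes, the F-test called 5493 in TPM and 2635 with the length trend removed.

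**Figure D5:**
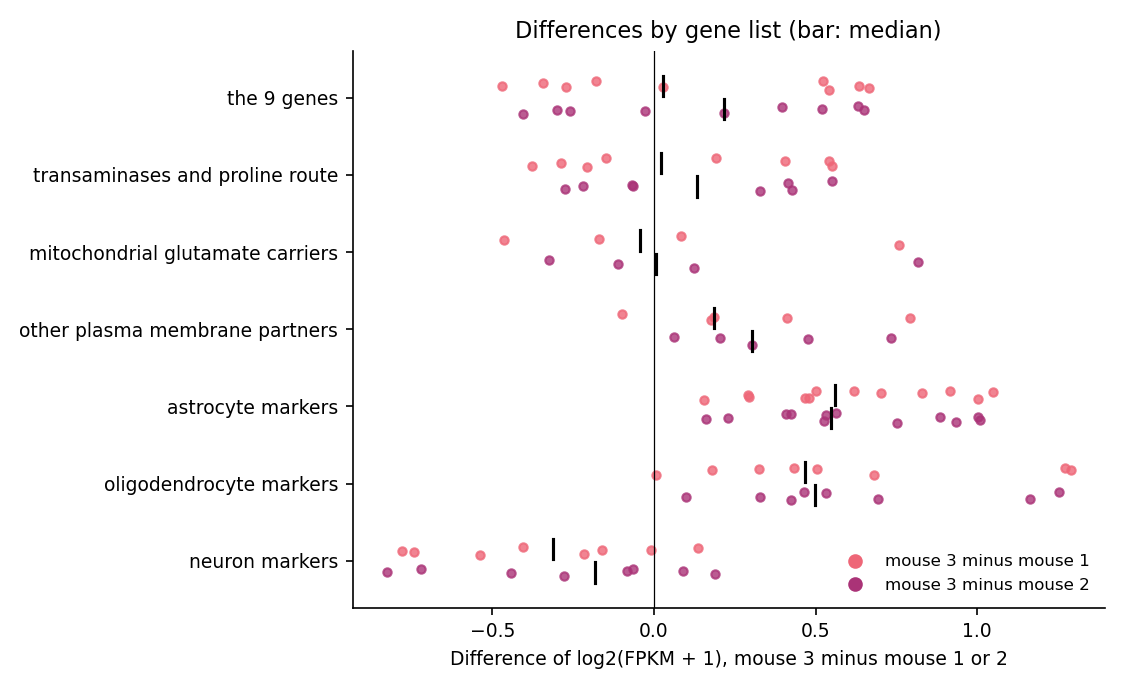
Difference of log2(FPKM + 1) for mouse 3 against mouse 1 and against mouse 2, for each tested gene of 7 lists; points are genes and bars are medians. The astrocyte and oligodendrocyte markers have medians between 0.47 and 0.56, the neuron markers have medians of -0.31 and -0.18, and the 9 genes spread to both sides of 0.

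Markers of cell types were read in the same way. Of 12 astrocyte markers, 9 were called in the F-test, all higher, and for all 12 both libraries of mouse 3 lay above the 6 others, as they did for 26.5% of all genes. Their summed level was 923 to 1022 FPKM in mice 1 and 2 and 1510 to 1671 FPKM in mouse 3, with median differences of 0.56 and 0.55. Of 8 oligodendrocyte markers, 5 were called and 7 lay above, and their sum was 2228 to 2488 FPKM against 4211 to 5151 FPKM. Most of the rise in this sum lay in Mbp, the myelin basic protein gene, with 1253 to 1365 FPKM in mice 1 and 2 and 2836 and 3495 FPKM in mouse 3. The myelin genes Cnp and Mag were not called, with differences of 0.0064 and 0.10 and of 0.18 and 0.33. Of 8 neuron markers, 2 were called, Rbfox3 and Syt1, both lower, with a sum of 2093 to 2253 FPKM against 1843 to 1960 FPKM and median differences of -0.31 and -0.18. For 4 of the 8, both libraries of mouse 3 lay below the 6 others, as they did for 21.7% of all genes. For 1, Nefl, they lay above, with differences of 0.14 and 0.19. Stmn2 had differences of -0.0079 and 0.089. None of these markers was at 0 in every library. In TPM the F-test called 5 of the 12 astrocyte markers, 3 of the 8 oligodendrocyte markers and 6 of the 8 neuron markers. Their medians against mouse 1 were then 0.28, 0.18 and -0.61, beside -0.28 over all genes. With the length trend removed the F-test called 10, 4 and 4. Of all 13001 genes, it called 3310 in FPKM, 5493 in TPM and 2635 with the length trend removed. Without the second library of mouse 3 the marker medians against mouse 1 were 0.52, 0.32 and -0.29, and fewer markers of each list were called in the F-test. The FPKM differences of Glul, Glud1, Slc1a3 and Slc1a2, from 0.40 to 0.67, stood beside the FPKM medians of these markers. The part of the cell types, of transcript length and of the libraries in these differences was not tested.

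In the other marker lists, beside 25.5% of all genes, the F-test called 3 of 5 Bergmann cell markers, 1 of 6 cerebellar granule cell markers, 0 of 6 Purkinje cell markers, 2 of 6 microglia markers, 2 of 6 endothelial markers, 1 of 5 blood markers and 1 of 5 choroid plexus markers, and 0 of the 1 pituitary marker at or above the minimum level. Without library 2 of mouse 3 it called 1 Purkinje cell marker and none of the other markers in these lists. In TPM the counts in the same order were 3, 3, 1, 1, 2, 1, 2 and 0, beside 5493 of all 13001 genes. With the length trend removed they were 3, 0, 2, 1, 2, 2, 1 and 1, beside 2635 of all genes. The summed Bergmann cell markers were at 217 to 287 FPKM in mice 1 and 2 and 385 to 463 FPKM in mouse 3. For 4 of the 5, both libraries of mouse 3 lay above the 6 others, as they did for 26.5% of all genes. The remaining marker, Gdf10 at 9.46 FPKM, had differences of -0.097 and -0.0090, and of -0.39 and -0.30 in TPM. Endothelial markers summed to 79.2 to 111 FPKM and 162 to 179 FPKM, with median differences of 0.47 and 0.54. Microglia markers summed to 91.3 to 103 FPKM and 119 to 126 FPKM, with medians of 0.28 and 0.34. In TPM these medians were 0.21 and 0.26 for endothelial and 0.0023 and 0.054 for microglia markers. Granule cell and choroid plexus markers had FPKM medians of -0.12 and -0.08 and of -0.10 and 0.02. The summed Purkinje cell markers, at 308 to 347 FPKM and 341 to 473 FPKM, overlapped, as Slc1a6 did.

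With both libraries of mouse 3 set against the 6 others, without any test, 4 of the 9 genes lay above (against 26.5% of all genes), 3 lay below (against 21.7%), and Slc1a6 and Slc38a3 overlapped. Over the alternatives and the fits that left out a library, 17 in all, the direction of both differences of mouse 3 was the same in 17 of 17 for 7 of the 9 genes. The exceptions were Slc1a6 against mouse 2 (13 of 17), and Slc38a3 against mouse 1 (14 of 17) and against mouse 2 (16 of 17). Without the second library of mouse 3, 126 genes of the table were called in place of 3310, and of the 9 genes Glul and Slc1a2 (limma F-test, adjusted p = 0.0419 and 0.0441).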

How the data were processed

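Bulk RNA-seq libraries of whole brains were taken as deposited. The authors deposited FPKM for 34535 RefSeq transcripts in each of 8 libraries, with confidence bounds, a status, and the coverage per base of each transcript, a signal not scaled for library size. Per the labels, TopHat and Cufflinks were used with the genome build mm10, and neither their versions nor the read length or strand setting are given in the sources used here. RNA was isolated with an RNAqueous Micro kit and libraries were made from mRNA with a Kapa HyperPrep kit, per the labels. The authors' estimation divides reads between the transcripts of a gene and between similar genes, which makes the value of 1 transcript less certain than that of its gene, and Glud1 could share reads with a processed copy of itself.

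FPKM values were summed over the transcripts of a gene, averaged over the libraries of a mouse and then over the 3 mice. Depth was estimated as coverage multiplied by length, and since the values are no counts, no counting interval was computed. The mice were compared with limma 3.58.1 in R 4.3.3 (moderated F-test and 3 pairwise contrasts) on log2(FPKM + 1), a pseudocount of 1 that understates changes of low genes, over genes whose mean was 1 FPKM or more. Values were adjusted by Benjamini-Hochberg over all 13001 genes, with a threshold of 0.05. Ratios were tested with exact permutation tests over 280 groupings of the libraries, adjusted over 4 ratios, of which 3 are given. The tests were checked on simulated data. No status other than OK occurred among the values of the 9 genes, and no 2 libraries had identical values. Promoter sequences come from RefSeq on GRCm38.

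The genes named are the 9 genes, 33 genes in 7 lists of glutamate handling, markers of astrocytes, neurons, cerebellar granule cells, Purkinje cells, Bergmann cells, oligodendrocytes, microglia, endothelium, blood, choroid plexus and pituitary, 72 in all, and the gene nearest in pattern to each of the 9. The 9 genes and the lists were chosen with earlier results of these data known. The alternatives were a pseudocount of 0.1, no minimum or a minimum of 5 FPKM, TPM, removal of the length trend in each library (lowess with a span of 0.3), the highest transcript, a mean-variance trend in limma, a replicate block, the mean over libraries and each library left out. Centring each library on its median was added after seeing the data. A comparison of the encoded proteins was not run, and 1 ratio and 2 further genes are not reported here.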

Additional observations from a re-analysis of the deposited data

How the results depend on the processing

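The number of genes that differed between the mice in limma's F-test was 3310, and became 5493 in TPM and 2171 with the highest transcript of each gene, and lay between 126 and 3860 with 1 library left out. The lowest value came without library 2 of mouse 3, and 1835, 1711 and 1635 genes were called without libraries 1, 2 and 3 of mouse 1. Of the 9 genes, 6 were called, and between 2 and 6 with 1 library left out. With libraries centred on their medians, chosen after seeing the data, 3929 genes were called. The levels of the 9 genes moved in TPM by the change of unit, to 1738 for Glul, 753 for Slc1a2, 520.0 for Slc1a3, 281 for Glud1, 94.7 for Slc38a1, 80.2 for Slc38a3, 79.1 for Slc38a2, 74.6 for Slc1a1 and 30.2 for Slc1a6. With the highest transcript, Slc1a2 had 182 FPKM and Slc38a1 17.0 FPKM. On the log2 scale, the difference of Slc38a3 between mouse 3 and mouse 1 reversed to -0.26 in TPM and -0.019 with the highest transcript and ranged from -0.11 to 0.16 with 1 library left out, and that between mouse 3 and mouse 2 reversed to -0.079 in TPM. The difference of Slc1a6 between mouse 3 and mouse 2 ranged from -0.17 to 0.061 with 1 library left out.

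Of the ratios, Slc1a2 to Slc1a3 spanned 0.15 on the log2 scale with the length trend removed, with mouse 3 highest, and 0.12 to 0.27 with 1 library left out. The ratio of Slc38a3 to Slc38a1 spanned 0.20 with the length trend removed and 0.30 with the highest transcript, neither past the threshold, and 0.40 to 0.57 with 1 library left out. With 1 library left out, Slc1a1 to Slc1a2 spanned 1.00 to 1.03. The share of NM_001077514 in Slc1a2 was 27.7 to 30.4% and that of NM_134086 in Slc38a1 was 9.47 to 10.6% with 1 library left out. The cause of these changes was not tested. Where a library of mouse 3 is left out, the lone remaining library is assumed to vary like those of the other mice.

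Libraries with the same number deviated together only weakly between mice, with a correlation from 0.00276 to 0.107 over 7 pairs, of which 1 was over 0.1. Pairs with different numbers had correlations from -0.135 to 0.0645. The numbers are not taken to pair the libraries. With the library number as a replicate block, limma called 2995 genes, the adjusted p was 0.0781 for Slc1a1 and 0.0762 for Slc38a2, and the difference of Slc1a6 between mouse 3 and mouse 2 was 0.024. The block changed no other call of the F-test among the 9 genes.

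The limits of these data are 3 mice of 1 condition, a number of reads that is not given, and libraries of mouse 3 that differ from the others in their FPKM total and their length trend.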
